A study of Mus musculus with 21 samples.

Results

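Granins and neuropeptides are the cargo of dense-core granules, and 10 genes for such cargo were followed in spiral ganglion neurons, the auditory nerve cells that link the hair cells to the brain stem. The 10 genes, Chga, Chgb, Scg2, Scg3, Scg5, Vgf, Adcyap1, Npy, Calca and Gal, were taken by symbol from a table of read counts with 21878 genes. All 10 were in that table, and 9 of them passed the filter on low counts that left 14968 genes for testing. Gal did not pass, so its counts are described without a test.

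Neurons were collected from mice at postnatal day 7, and about 50 of them, drawn up by micropipette, made a library of polyadenylated RNA by the Smart-seq2 method. The animals had received an adeno-associated virus (AAV) with a site-mutated HCN2 channel of dominant-negative action (DN-mHCN2, 3 libraries from the base and 4 from the apex of the cochlea), with a truncated SK3 channel of dominant-negative action (truncated SK3, 3 from the base and 3 from the apex), or with EGFP alone (control, genotype WT, 4 from the base and 4 from the apex). HCN2 passes a cation current when the membrane hyperpolarizes and SK3 a potassium current when calcium rises, and the title of the series speaks of genes that patterned activity regulates while auditory synapses form. The base of the cochlea encodes high and the apex low sound frequencies. The promoter that drove each insert and the animals behind each library are not stated in the labels, so a p-value measures the spread between these libraries only, and loss of channel function was not measured here.

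Granins are acidic secretory proteins that help to form granules in the trans-Golgi network and are themselves cut into peptides. Neuropeptide precursors enter the same granules, are cleaved by prohormone convertases and act on G-protein-coupled receptors after release. Transcription of several of these genes, Vgf and Scg2 among them, is known to follow neuronal activity in other neurons, in part through the cAMP response element, a short promoter sequence bound by the factor CREB.

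Library totals ran from 10411634 to 15138780 counts, and levels are given as CPM, reads per 1000000 reads of the TMM-scaled total, where a single read was worth 0.0653 to 0.102 CPM. All 15 markers of spiral ganglion neurons had reads in every group, with summed levels of 10984 to 22615 CPM per library; 1 of them, Snap25, is also in the list of granule machinery below. Markers of Schwann and satellite glia were of the same order, at 10022 to 46544 CPM. Macrophage markers passed 1000 CPM in replicates 2 and 3 of DN-mHCN2 base, supporting cell markers reached 8550 CPM in replicate 1 of DN-mHCN2 apex, and fibroblast markers reached 3924 CPM in replicate 1 of DN-mHCN2 base. That last library also had the lowest sum of neuron markers. Libraries of a group were separate deposits, with at most 5.86% of genes of equal count between any pair.

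The promoters of the 10 genes are shown first, since the cAMP response element is the sequence most often tied to these genes. RefSeq windows on GRCm38.p6 with 250 bases before and 50 bases after the start site were matched by symbol for 9 of the 10 genes. Vgf had no entry. The full element TGACGTCA and its core TGACG, which lies within the full element, were searched on both strands of the upstream 250 bases. The stretches below hold the matches, written 5′ to 3′ on the strand of the gene, with the full element or the core in capitals.

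Chgb, chr2:132781559-132781588, plus strand: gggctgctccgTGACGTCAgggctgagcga
Scg2, chr1:79440076-79440105, minus strand: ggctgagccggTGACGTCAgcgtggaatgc
Chga, chr12:102554886-102554915, plus strand: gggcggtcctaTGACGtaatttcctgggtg
Calca, chr7:114636404-114636433, minus strand: aagcacagaggTGACGcaatctgtctgggg
Adcyap1, chr17:93198915-93198944, plus strand: gactaggatgcTGACGtcttttactgatac
Scg5, chr2:113829248-113829277, minus strand: aaggaggtaaaTGACGttcataggggtcga
Scg3, chr9:75684068-75684097, minus strand: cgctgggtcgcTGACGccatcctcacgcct

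Chgb and Scg2 carried the full element, 72 and 68 bases upstream of the start site, and 508 of the 32851 RefSeq windows (1.55%) held it. The core stood in 7 of the 9 matched genes and in 5836 windows (17.8%). It lay 44 bases upstream of the start in Chga, 65 in Calca, 30 in Scg3, 175 in Scg5 and 91 in Adcyap1, counted from the more upstream of the 2 start sites that RefSeq gives for Adcyap1. Neither motif was found in these windows of Npy and Gal. In the GENCODE annotation the Chgb and Scg2 matches fall inside an annotated first exon, since that annotation starts these genes further upstream. A match of letters is a description of the window and says nothing about binding.

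The 10 genes fell into a group of 4 that every library held in quantity and a group of 6 that were sparse. Chga, Chgb, Scg5 and Scg3 had reads in all 21 libraries, and their level varied by a coefficient of variation of 17.99% (Scg3) to 22.4% (Chga) over all libraries. The other 6 had no read in 5 (Npy) to 15 (Gal) of the 21 libraries. Per kilobase of merged exon the mean level was 461 CPM for Scg5, 292 for Chgb, 209 for Chga and 37.4 for Scg3, against 3.29 for Npy, 3.05 for Scg2, 1.504 for Calca, 0.387 for Vgf, 0.367 for Gal and 0.190 for Adcyap1. Summed over the genes, the 6 sparse ones made up 0.0064% to 1.20% of the CPM of all 10 in 20 libraries, and 7.47% in replicate 1 of DN-mHCN2 base.

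Chga (chromosome 12, 102554969 to 102565028 on GRCm38, GENCODE M21) encodes chromogranin A, a major soluble granule protein. Its level was 427, 497 and 754 CPM in DN-mHCN2 base, 447, 482, 636 and 727 in DN-mHCN2 apex, 523, 612 and 648 in truncated SK3 base and 351, 385 and 410 in truncated SK3 apex, against 691, 737, 557 and 762 in control base and 680, 536, 679 and 567 in control apex. The 3 libraries of truncated SK3 apex were the 3 lowest of all 21, an order that was not counted over all genes. The group means, in rising order, were truncated SK3 apex (382 ± 29.9 CPM, SD, n = 3), DN-mHCN2 base (559 ± 172, n = 3), DN-mHCN2 apex (573 ± 132, n = 4), truncated SK3 base (594 ± 64.3, n = 3), control apex (615 ± 75.2, n = 4) and control base (687 ± 91.4, n = 4). Neighbours in this order overlapped in their libraries, except that truncated SK3 apex lay below every other group.

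In the apex, Chga did not overlap between truncated SK3 (351 to 410 CPM) and control (536 to 680 CPM). The log2 fold change there was -0.69 (SE 0.195), with an edgeR p of 0.00199 and a Benjamini-Hochberg adjusted p of 0.233. Of all tested genes, 1013 (6.77%) lay wholly lower in this comparison. In the base the libraries of truncated SK3 and control overlapped, and the log2 fold change was -0.21 (SE 0.192, edgeR Benjamini-Hochberg adjusted p = 1). The difference of the truncated SK3 effect between base and apex was 0.48 on the log2 scale (SE 0.271, edgeR Benjamini-Hochberg adjusted p = 1), so the effect was not shown to differ between regions. For that difference 0% of all genes were called by edgeR under truncated SK3 (545 at an unadjusted p under 0.05, and 21 called by DESeq2), and 0.00668% under DN-mHCN2, none of them a member.

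Over both regions the log2 fold change of Chga under truncated SK3 was -0.45 (95% interval -0.73 to -0.16, edgeR Benjamini-Hochberg adjusted p = 0.176), and the gene was not called. The call depended on the fit. With only the truncated SK3 and control libraries in the model it was -0.46 with an edgeR Benjamini-Hochberg adjusted p of 0.0237, and DESeq2, with all libraries, gave an adjusted p of 0.0592 over both regions and of 0.0498 in the apex. Leaving out any library in turn kept the change between -0.50 and -0.41, with edgeR Benjamini-Hochberg adjusted p-values of 0.133 to 0.348.

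Under DN-mHCN2 Chga ranged over more of the scale, from 427 to 754 CPM, against 536 to 762 CPM in control. Over both regions it changed by -0.20 on the log2 scale (95% interval -0.47 to 0.07, edgeR Benjamini-Hochberg adjusted p = 0.402). The direct difference of DN-mHCN2 and truncated SK3 was 0.25 (95% interval -0.04 to 0.54, edgeR Benjamini-Hochberg adjusted p = 0.43). Without replicate 3 of DN-mHCN2 base, its highest library, these values were -0.34 and 0.12, and without replicate 1 of that group -0.12 and 0.34. Both construct comparisons share the control libraries.

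Sums of cell markers are given here for the same apex groups. The 15 supporting cell markers, none of them at 0 in either group, summed to 2081 to 2923 CPM in truncated SK3 apex, against 500 to 1903 CPM in control apex. The 15 neuron markers summed to 13789, 14372 and 17945 CPM in truncated SK3 apex, against 17133 to 18922 CPM in control apex. Their part in the Chga values was not tested. In bulk libraries, fewer cells of a type and less RNA per cell cannot be told apart.

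**Figure D1:**
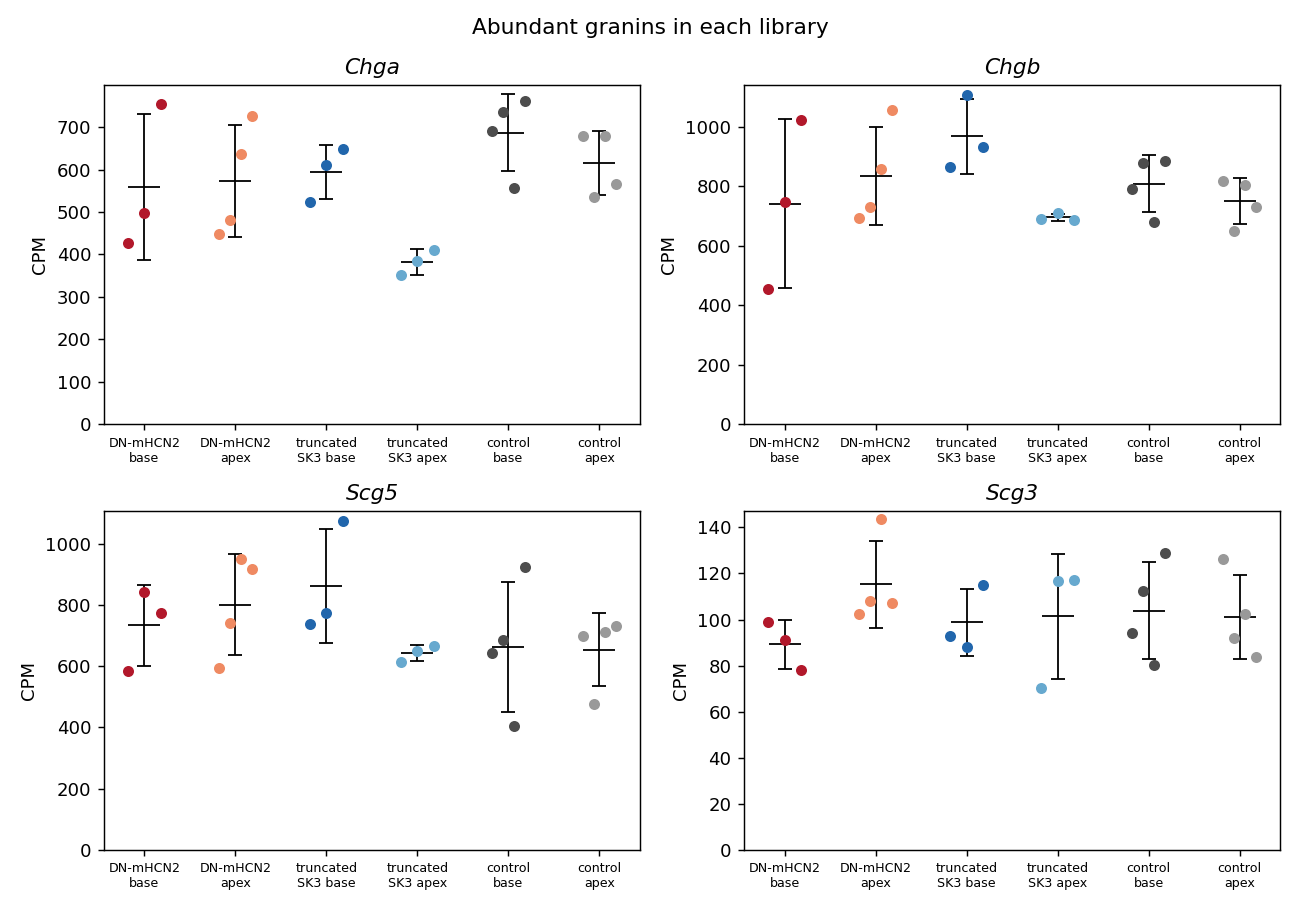
Level of Chga, Chgb, Scg5 and Scg3 in each library (CPM, linear axis from 0), with group means and SD as bars, for the 6 groups of construct and region. The 3 libraries of truncated SK3 apex, at 351 to 410 CPM of Chga, sit below all other libraries, an order that was not counted over all genes. For Chgb, Scg5 and Scg3 each construct group overlaps the control group of its own region.

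Chgb (chromosome 2, 132781278 to 132795079) encodes chromogranin B, the granin most similar in role to chromogranin A. It had 454, 747 and 1024 CPM in DN-mHCN2 base, 694, 729, 860 and 1059 in DN-mHCN2 apex, 866, 1109 and 931 in truncated SK3 base and 691, 709 and 687 in truncated SK3 apex, against 792, 880, 682 and 884 in control base and 818, 649, 805 and 730 in control apex. Truncated SK3 base had the highest mean (969 ± 126 CPM, SD, n = 3) and truncated SK3 apex the lowest (696 ± 11.9, n = 3), a ratio of 1.39 between the extreme groups, and the libraries of all groups with neighbouring means overlapped. Over both regions Chgb differed from control by 0.01 on the log2 scale under DN-mHCN2 (95% interval -0.27 to 0.30) and 0.08 under truncated SK3 (-0.22 to 0.37). Replicate 1 of DN-mHCN2 base, the library rich in fibroblast markers, had the lowest Chgb of all at 454 CPM.

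The ratio of Chga to Chgb reads within a library does not depend on the library total. It was 0.942, 0.665 and 0.736 in DN-mHCN2 base, 0.645, 0.660, 0.740 and 0.687 in DN-mHCN2 apex, 0.604, 0.552 and 0.696 in truncated SK3 base and 0.507, 0.543 and 0.597 in truncated SK3 apex, against 0.873, 0.837, 0.817 and 0.862 in control base and 0.832, 0.825, 0.844 and 0.776 in control apex. All 6 truncated SK3 libraries and 6 of the 7 DN-mHCN2 libraries lay below the lowest control library, with replicate 1 of DN-mHCN2 base as the exception. How many other genes had 6 of 7 DN-mHCN2 libraries below control in this ratio was not counted. The means were 0.725 ± 0.102 under DN-mHCN2 (SD, n = 7), 0.583 ± 0.0659 under truncated SK3 (n = 6) and 0.833 ± 0.0296 in control (n = 8).

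The ratio was chosen after the values of both genes had been seen, so it is given without a test. Of the 2286 other genes that averaged 100 CPM or more, 29 (1.27%) had a ratio to Chgb that was wholly lower in truncated SK3 than in control, Chga among them, and 2 (0.0875%) had one wholly higher. A ratio within a library shows an unequal change of the pair and does not show which gene changed.

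**Figure D2:**
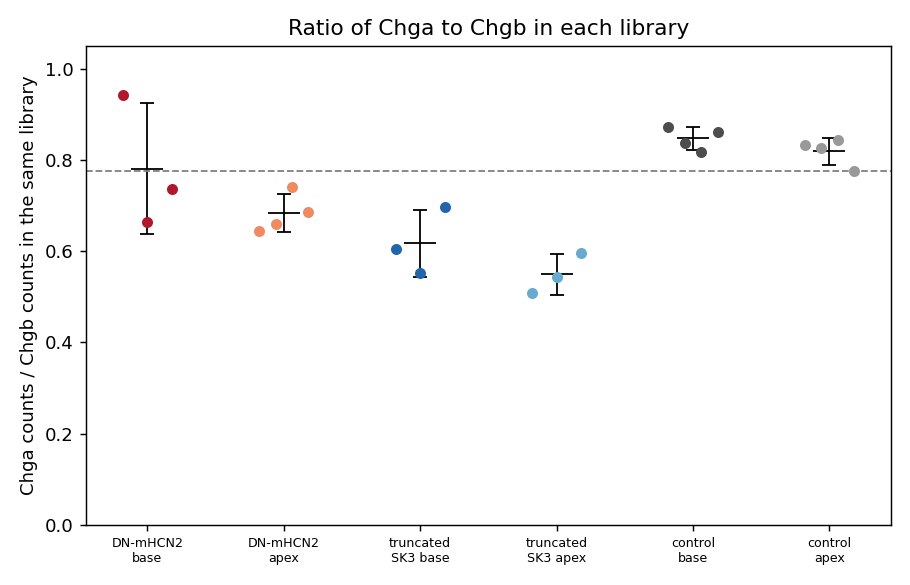
Chga reads divided by Chgb reads in each library (linear axis from 0), with group means and SD, for the 6 groups. The dashed line marks the lowest control library at 0.776; the 6 truncated SK3 libraries, at 0.507 to 0.696, and 6 of 7 DN-mHCN2 libraries lie under it.

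Scg5 (chromosome 2, 113776362 to 113829121) encodes 7B2, the chaperone of prohormone convertase PC2. Its level was 585, 841 and 774 CPM in DN-mHCN2 base, 596, 741, 950 and 918 in DN-mHCN2 apex, 737, 775 and 1075 in truncated SK3 base and 615, 651 and 666 in truncated SK3 apex, against 644, 686, 404 and 923 in control base and 698, 477, 712 and 732 in control apex. Each construct group overlapped the control group of its own region, and the control libraries alone spanned 404 to 923 CPM. Truncated SK3 base (737 CPM or more) lay above truncated SK3 apex (up to 666) and, narrowly, above control apex (up to 732). The last pair differs in both construct and region. How many of all genes were ordered in these ways was not counted. Over both regions Scg5 differed from control by 0.22 on the log2 scale under DN-mHCN2 (95% interval -0.11 to 0.54) and 0.18 under truncated SK3 (-0.16 to 0.51).

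Scg3 (chromosome 9, 75643189 to 75684056) encodes secretogranin III, which binds chromogranin A and cholesterol at the granule membrane. Its level was 99.0, 90.9 and 78.0 CPM in DN-mHCN2 base, 102, 108, 144 and 107 in DN-mHCN2 apex, 93.0, 88.2 and 115 in truncated SK3 base and 70.1, 117 and 117 in truncated SK3 apex, against 94.0, 112, 80.4 and 129 in control base and 126, 92.2, 102 and 83.9 in control apex. It was the steadiest of the 10 genes, and the highest and lowest group means differed by a ratio of 1.29. Over both regions Scg3 differed from control by -0.01 on the log2 scale under DN-mHCN2 (95% interval -0.31 to 0.28) and -0.03 under truncated SK3 (-0.34 to 0.27), and the first value turned to 0.0067 with RLE size factors. Both intervals include 0, and changes of Scg3 of either sign within them remain possible.

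**Figure D3:**
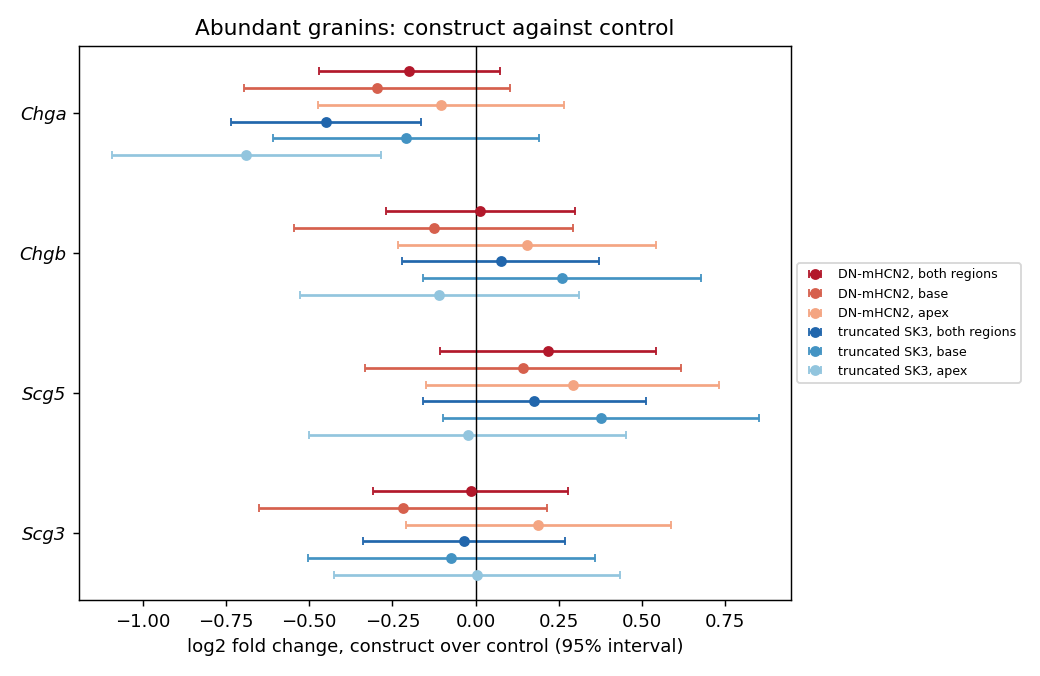
Log2 fold change of each construct over control with its 95% interval for Chga, Chgb, Scg5 and Scg3, over both regions, in the base and in the apex. The interval of Chga under truncated SK3 lies below 0 over both regions (-0.73 to -0.16) and in the apex (-1.09 to -0.28), and all other intervals include 0.

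None of the 9 tested genes was called in any of the 11 comparisons at a Benjamini-Hochberg adjusted p of 0.05 by edgeR. For DN-mHCN2 over both regions, where 6.05% of all tested genes were called, 1 of the 9 had an unadjusted edgeR p under 0.05 (Vgf), against 21.97% of all genes. For truncated SK3 over both regions, with 0.735% of genes called, 2 had one (Chga and Npy), against 10.28% of all genes. For the direct comparison of the constructs, with 0.655% called, 0 had one, against 14.47% of all genes. Within the apex the numbers were 0 under DN-mHCN2 and 1 under truncated SK3 (11.91% and 8.511% of all genes, with 0.200% and 0.254% called), and within the base 1 and 1 (18.5% and 5.512% of all genes, with 2.14% and 0.147% called). DESeq2 called Vgf under DN-mHCN2 over both regions and in the base, Chga under truncated SK3 in the apex and Adcyap1 between the regions. It gave Scg2 no p-value in any comparison. The median log2 fold change of the 9 genes was 0.01 under DN-mHCN2 and -0.45 under truncated SK3, against 0.03 and 0.01 over all tested genes, with 3 of 9 positive under truncated SK3. That median is the value of Chga itself.

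Vgf (chromosome 5, 137026392 to 137033351) encodes a granin-like precursor whose peptides act on neurons and on energy balance, and its transcript is a standard marker of neurotrophin and activity signalling. Its read count was 0 in each of the 3 DN-mHCN2 base libraries, 0, 16, 0 and 6 in DN-mHCN2 apex, 0, 0 and 11 in truncated SK3 base and 4, 0 and 4 in truncated SK3 apex, against 10, 2, 1 and 245 in control base and 14, 2, 10 and 9 in control apex. All 8 control libraries thus had Vgf reads, against 2 of 7 DN-mHCN2 libraries and 3 of 6 truncated SK3 libraries. The share of all genes with such a split of reads was not counted. Replicate 4 of control base held 73.3% of all Vgf reads of the series, at 17.2 CPM, and the next library of its group was at 0.872 CPM. The 3 DN-mHCN2 base libraries lay below all 4 control base libraries, as 9.03% of all genes did.

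Over both regions Vgf averaged 0.220 CPM under DN-mHCN2, against 2.61 CPM in control, a log2 fold change of -4.80 (SE 1.67, edgeR Benjamini-Hochberg adjusted p = 0.0923). DESeq2 gave -4.46 with an adjusted p of 0.0331. Without replicate 4 of control base the edgeR change was -2.98, and Benjamini-Hochberg adjusted p-values over the 15 fits that left out a library ran from 0.0836 to 0.276. The value of -4.80 combines -8.89 in the base with -0.71 in the apex (SE 1.775, edgeR Benjamini-Hochberg adjusted p = 0.942). The base value is a fitted one that depends on DN-mHCN2 base at 0 reads. In the base, 0 reads in 3 DN-mHCN2 libraries allow up to 0.0819 CPM when pooled (3 counts, counting error only). Pooled control base lay 57.7-fold above that limit, but 3.93-fold above it once replicate 4 of control base is left out. The limit leaves out the spread between libraries. For Vgf in the base the interval of the fit was -15.1 to -2.67 on the log2 scale.

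Under truncated SK3 Vgf reads were few as well, at 19 in 6 libraries against 293 in the 8 control libraries. Over both regions the log2 fold change came to -2.55 (SE 1.48, edgeR Benjamini-Hochberg adjusted p = 0.592), and -0.74 without replicate 4 of control base. That control library was also the highest of its group in Scg2, and it was among the 3 of that group with over 500 CPM of oligodendrocyte markers, whose part in the values was not tested.

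Scg2 (chromosome 1, 79434669 to 79440120) encodes secretogranin II, the precursor of secretoneurin. Its read count was 1751, 15 and 1 in DN-mHCN2 base, 3, 4, 1 and 0 in DN-mHCN2 apex, 0, 8 and 214 in truncated SK3 base and 0 in each of the 3 truncated SK3 apex libraries, against 18, 7, 0 and 177 in control base and 0, 38, 20 and 27 in control apex. A single library, replicate 1 of DN-mHCN2 base, held 76.7% of all Scg2 reads, at 117 CPM, and it was the library richest in fibroblast markers. The 3 highest libraries all came from the base, each from another condition.

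In truncated SK3 apex, 0 reads allow up to 0.0807 CPM when pooled (3 counts, counting error only). Pooled control apex, with 85 reads, lay 19.1-fold above that limit. The limit leaves out the spread between libraries. For Scg2 in the apex the interval of the fit was -15.0 to 0.36 on the log2 scale, which includes 0. The test did not call Scg2 (edgeR Benjamini-Hochberg adjusted p = 0.603, and between 0.561 and 0.856 with a library left out). Replicate 1 of control apex, with 0 reads, overlapped the truncated SK3 group.

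**Figure D4:**
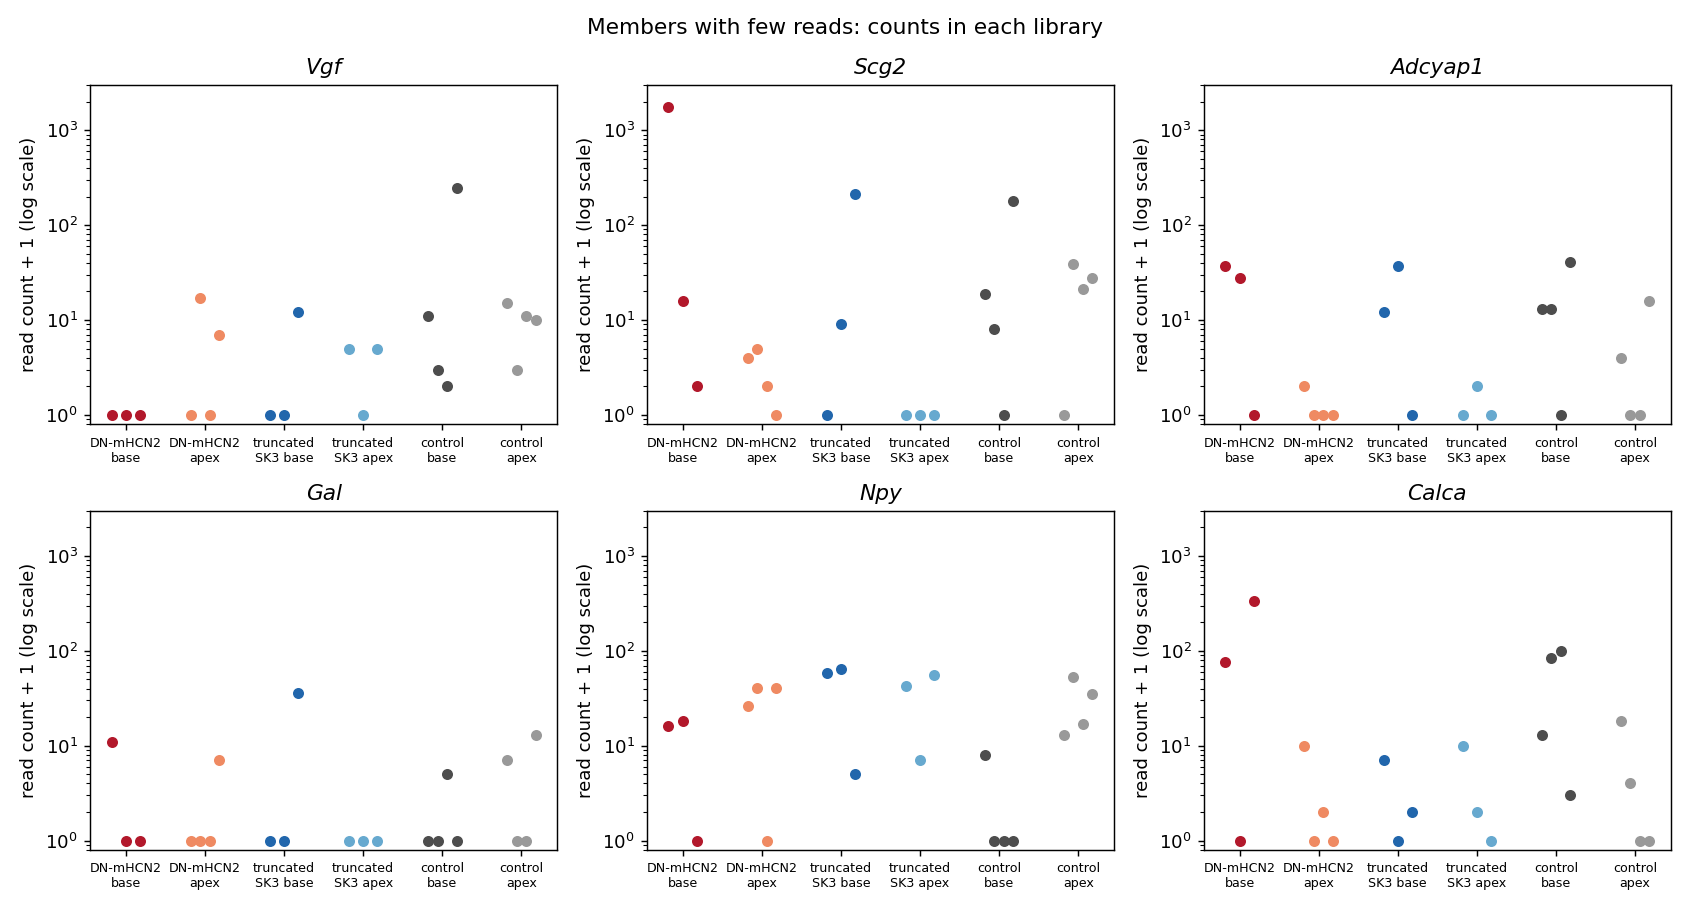
Read count plus 1 of Vgf, Scg2, Adcyap1, Gal, Npy and Calca in each library (log axis), for the 6 groups; points at 1 had no read. Vgf has reads in all 8 control libraries and in 2 of 7 DN-mHCN2 libraries, a split that was not counted over all genes. Scg2 (1751 reads), Calca (333 reads) and Vgf (245 reads) each have a library far above the rest of its group.

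Reads of the sparse genes were summed over 10 base and 11 apex libraries. Adcyap1 (174 and 20), Calca (612 and 40) and Scg2 (2191 and 93) had more at the base. So did Vgf (269 and 65) and Gal (49 and 24), while Npy had fewer (165 and 322). Single base libraries held 1751 of the Scg2, 333 of the Calca, 245 of the Vgf and 35 of the Gal reads. Under truncated SK3 Calca (7 and 10) and Npy (126 and 103) went the other way. Vgf under DN-mHCN2 (0 and 22) and Gal in control (4 and 18) did as well. Base was compared with apex in the control libraries and, as a comparison added after the data had been seen, as the mean of the regional difference over DN-mHCN2, truncated SK3 and control. By edgeR 0% of all genes were called in control (722 genes, 4.824%, at an unadjusted p under 0.05, and 83 called by DESeq2) and 1.16% in the mean over the conditions (14.37% at an unadjusted p under 0.05). Of the 9 tested genes none was called in either, and 1 and 4 of them had an unadjusted p under 0.05.

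Adcyap1 (chromosome 17, 93199017 to 93206537) encodes the precursor of PACAP, a peptide that raises cAMP and is known for trophic action on neurons. Its read count was 36, 27 and 0 in DN-mHCN2 base and 1, 0, 0 and 0 in DN-mHCN2 apex, 11, 36 and 0 in truncated SK3 base and 0, 1 and 0 in truncated SK3 apex, and 12, 12, 0 and 40 in control base and 3, 0, 0 and 15 in control apex. At least 10 reads were found in 7 of 10 base libraries, against 1 of 11 apex libraries, and such splits were not counted over all genes. Each of the 3 base groups also had a library without any read.

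The mean Adcyap1 level was 1.36 CPM at the base, against 0.128 CPM at the apex, a log2 difference of 4.35 (SE 1.24, edgeR Benjamini-Hochberg adjusted p = 0.0965). DESeq2 gave 4.54 with an adjusted p of 0.0342, and edgeR Benjamini-Hochberg adjusted p-values with a library left out ran from 0.0757 to 0.211. Within the control libraries alone the log2 difference was 1.85 (SE 1.76, edgeR Benjamini-Hochberg adjusted p = 1). Under DN-mHCN2 and truncated SK3 against control over both regions it was -1.57 (SE 1.27) and -1.52 (SE 1.37), neither of them called. Without replicate 4 of control apex, which held 15 of the 18 reads of that group, these became -0.61 and -0.57, and the control difference between base and apex 3.77. Without replicate 4 of control base the control difference was 0.92.

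Calca (chromosome 7, 114631478 to 114636357) gives rise to calcitonin and to the neuropeptide CGRP, which efferent fibres and sensory neurons are known to use. Its read count was 76, 0 and 333 in DN-mHCN2 base and 9, 0, 1 and 0 in DN-mHCN2 apex, 6, 0 and 1 in truncated SK3 base and 9, 1 and 0 in truncated SK3 apex, and 12, 84, 98 and 2 in control base and 17, 3, 0 and 0 in control apex. Counts of 50 or more were found in 2 DN-mHCN2 base and 2 control base libraries, and the 6 truncated SK3 libraries together had 17 reads. Replicate 3 of DN-mHCN2 base, at 30.5 CPM, held 51.1% of all Calca reads and had macrophage markers at 1151 CPM. Replicate 2 of that group had these markers at 1765 CPM and 0 Calca reads. Their part in the Calca values was not tested.

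The log2 difference of Calca between base and apex, as the mean over the conditions, was 2.96 (SE 1.15, edgeR Benjamini-Hochberg adjusted p = 0.231), and 2.23 without replicate 3 of DN-mHCN2 base. Its longest transcript shares 1.16% of its 50-base stretches with Calcb, and none of the other 9 genes shared such a stretch. Transcripts for calcitonin and for CGRP cannot be told apart in counts per gene.

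Scg2 differed between base and apex by 6.26 on the log2 scale (SE 1.60, edgeR Benjamini-Hochberg adjusted p = 0.0774), a fitted value that depends on the group of truncated SK3 apex at 0 reads. Without replicate 1 of DN-mHCN2 base it was 4.36, and edgeR Benjamini-Hochberg adjusted p-values with a library left out ran from 0.0667 to 0.187. Chga differed by 0.25 (SE 0.110, edgeR Benjamini-Hochberg adjusted p = 0.298), with medians of 630 CPM over 10 base libraries and 536 CPM over 11 apex libraries.

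Markers differed between the regions too. Schwann and satellite glial markers summed to 19406 to 46544 CPM in the base and 12927 to 21515 CPM in the apex of truncated SK3 animals, and to 14931 to 28795 CPM in the base and 12208 to 19297 CPM in the apex of controls. Under DN-mHCN2 the direction was the other one, with 10022 to 14954 CPM (median 11339) in the base and 11105 to 18274 CPM (median 17042) in the apex. Oligodendrocyte markers passed 500 CPM in 4 base libraries and were at most 36.1 CPM at the apex. Their part in the regional values was not tested.

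Npy (chromosome 6, 49822710 to 49829507) encodes neuropeptide Y, a peptide that commonly damps transmitter release. Its read count was 15, 17 and 0 in DN-mHCN2 base, 25, 40, 0 and 40 in DN-mHCN2 apex, 58, 64 and 4 in truncated SK3 base and 42, 6 and 55 in truncated SK3 apex, against 7, 0, 0 and 0 in control base and 12, 52, 16 and 34 in control apex. Reads were spread more evenly than for the other sparse genes, with 13.1% in the highest library. All 6 truncated SK3 libraries had Npy reads, against 5 of 8 control libraries, a split that was not counted over all genes. Control base was the group with the fewest reads, 7 in 4 libraries.

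Within control, Npy did not overlap between base (0 to 0.610 CPM) and apex (0.929 to 4.01 CPM), as 426 genes (2.85%) did not in this direction. The log2 difference of control base over control apex was -3.76 (SE 1.64, edgeR Benjamini-Hochberg adjusted p = 0.909). In the base, truncated SK3 averaged 3.82 ± 2.999 CPM (SD, n = 3), against 0.153 ± 0.305 CPM in control (n = 4), a log2 fold change of 4.62 (SE 1.74, edgeR Benjamini-Hochberg adjusted p = 0.75), with 4 and 7 reads in the lowest truncated SK3 and the highest control library. Over both regions it was 2.55 under truncated SK3 (SE 1.13, edgeR Benjamini-Hochberg adjusted p = 0.434). In the apex truncated SK3 and control overlapped (0.431 to 4.63 CPM, against 0.929 to 4.01 CPM). The difference of the truncated SK3 effect between base and apex was 4.15 (SE 2.31, edgeR Benjamini-Hochberg adjusted p = 1). The fitted values that use control base rest on its replicate 1, the single library of that group with Npy reads. Without it control base is at 0 and these values depend on the prior count. The control difference then became -7.78, the truncated SK3 change 8.63 within the base and 4.55 with the regions combined, and the difference of that change between regions 8.15.

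Gal (chromosome 19, 3409915 to 3414544) encodes galanin, a peptide known to be induced in injured neurons. Its read count was 10, 0 and 0 in DN-mHCN2 base, 0, 0, 0 and 6 in DN-mHCN2 apex, 0, 0 and 35 in truncated SK3 base and 0 in each of the 3 truncated SK3 apex libraries, against 0, 0, 4 and 0 in control base and 6, 0, 0 and 12 in control apex. It was found in 6 of 21 libraries, and replicate 3 of truncated SK3 base held 47.9% of its 73 reads. That library also had the highest Scg2 and Vgf counts of the truncated SK3 libraries.

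Of the machinery that fills and releases dense-core granules, 24 of 24 listed genes passed the filter and were tested. Some were sparse, with Pcsk1 (0.768 CPM) and Sytl4 (0.545 CPM) each having reads in 9 libraries. The levels were highest for Snap25, a SNARE protein of all regulated release, and Cpe, the carboxypeptidase that trims peptides after cleavage, at 3449 and 950 CPM over all libraries, and neither was called in any comparison. Under DN-mHCN2 1 of the 24 was called higher and 1 lower (2.45% and 3.61% of all genes), and under truncated SK3 likewise 1 and 1 (0.327% and 0.408%). The median log2 fold change of the list was 0.06 under DN-mHCN2 and 0.00 under truncated SK3, against 0.03 and 0.01 over all genes. Between the constructs and in each regional comparison 0 of 24 were called by edgeR, with 0 to 6 of them at an unadjusted p under 0.05. DESeq2 called Slc18a2 lower in DN-mHCN2 apex, Syt4 and Rab27b higher in DN-mHCN2 base and Syt4 higher in truncated SK3 base, and 0 in the other 6 of these comparisons.

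Slc18a2 encodes the vesicular monoamine transporter VMAT2, and it was lower under both constructs. It averaged 28.4 ± 12.01 CPM in DN-mHCN2 base (SD, n = 3), 18.7 ± 7.24 in DN-mHCN2 apex (n = 4), 16.6 ± 4.41 in truncated SK3 base (n = 3) and 21.4 ± 7.995 in truncated SK3 apex (n = 3), against 35.9 ± 7.18 in control base and 45.5 ± 10.9 in control apex (n = 4 each). Truncated SK3 lay below control within the base (12.8 to 21.4 CPM, against 28.6 to 42.5) and within the apex (13.4 to 29.4 CPM, against 31.8 to 57.4), as 4.55% and 6.77% of all genes did. The log2 fold change was -0.81 under DN-mHCN2 (SE 0.239, edgeR Benjamini-Hochberg adjusted p = 0.0485) and -1.10 under truncated SK3 (SE 0.253, edgeR Benjamini-Hochberg adjusted p = 0.0426). With a library left out the edgeR Benjamini-Hochberg adjusted p-values ran from 0.0235 to 0.118 and from 0.0343 to 0.135, so both calls lie near the threshold. The DN-mHCN2 call was also lost with RLE size factors (edgeR Benjamini-Hochberg adjusted p = 0.0514), with no filter on low counts (0.0560), without the libraries rich in macrophage markers, replicates 2 and 3 of DN-mHCN2 base (0.102), and without those rich in supporting cell or fibroblast markers, replicate 1 of DN-mHCN2 apex and of DN-mHCN2 base (0.0944).

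Syt4, a synaptotagmin of dense-core granules that is also induced by activity, was the gene called higher under truncated SK3. It averaged 255 ± 56.1 CPM in truncated SK3 base and 208 ± 28.0 in truncated SK3 apex (SD, n = 3 each), against 144 ± 27.3 in control base and 139 ± 23.6 in control apex (n = 4 each). The 6 truncated SK3 libraries (191 to 318 CPM) did not overlap the 8 control libraries (112 to 173 CPM), as 0.354% of all genes did not in this direction. The log2 fold change was 0.70 (SE 0.137, edgeR Benjamini-Hochberg adjusted p = 0.0133, with 0.0113 to 0.0590 when a library was left out).

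Rab27b, a small GTPase that docks granules, was the gene called higher under DN-mHCN2, at 15.7 CPM against 3.09 CPM in control, a log2 fold change of 2.23 (SE 0.638, edgeR Benjamini-Hochberg adjusted p = 0.0429). That edgeR adjusted p ran from 0.0071 to 0.144 with a library left out and was 0.0543 with only the groups compared. The 3 libraries of DN-mHCN2 base spanned 0.670 to 52.5 CPM. Without replicates 2 and 3 of that group, the libraries with macrophage markers above 1000 CPM, the change was -0.39, but that fit has a single DN-mHCN2 base library, the one at 0.670 CPM, which is assumed to vary like the other groups. In the apex, which that fit left as it was, Rab27b averaged 8.13 ± 5.16 CPM under DN-mHCN2, against 3.37 ± 1.65 CPM in control (SD, n = 4 each).

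Of 15 listed genes for receptors of PACAP, galanin, neuropeptide Y and CGRP and for receptor accessory proteins, 8 were tested and 7 did not pass the filter. Levels were low, with the receptor accessory proteins Ramp2 and Ramp3 the highest at 3.84 and 3.24 CPM over all libraries. By edgeR, as by DESeq2, 0 of 8 were called in any comparison, with 0 to 2 at an unadjusted p under 0.05, and Ramp2 averaged 3.53 CPM under DN-mHCN2 and 5.42 CPM under truncated SK3, against 2.92 CPM in control. Of 46 other neuropeptide precursors, 14 were tested and 0 were called by edgeR or DESeq2, with 0 to 2 at an unadjusted p under 0.05. The highest were Penk, the enkephalin precursor, at 5.17 CPM with reads in 16 libraries, and Pomc, the precursor of melanocortins and endorphin, at 4.08 CPM with reads in all 21.

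Late activity-regulated genes, the class to which Vgf and Scg2 are often counted, had 22 of 22 listed genes tested. By edgeR 1 was called higher under DN-mHCN2 over both regions, Pim1, where 6.05% of all genes were called. Under truncated SK3 over both regions, with 0.735% of all genes called, 1 was called lower, Nptx2, and 1 higher, Syt4. Within the base and within the apex edgeR called Nptx2 lower under truncated SK3 and no other gene of the list. DESeq2 made each of these calls. It also called Nptx2 lower under DN-mHCN2 over both regions, Syt4 higher in truncated SK3 base, 2 higher and 1 lower in DN-mHCN2 base (Syt4, Pim1 and Nrn1) and Bdnf lower in base against apex over the conditions. Nptx2, a secreted pentraxin that gathers glutamate receptors, was at 1.48 to 9.999 CPM in DN-mHCN2 base, 3.54 to 9.73 in DN-mHCN2 apex, 0.204 to 1.049 in truncated SK3 base and 0.215 to 0.352 in truncated SK3 apex, against 10.95 to 16.4 in control base and 6.39 to 18.6 in control apex. Under truncated SK3 it fell by 5.00 on the log2 scale (SE 0.597, edgeR Benjamini-Hochberg adjusted p = 5.25e-05), against -2.55 for Vgf, -0.45 for Chga and 0.08 for Chgb in the same comparison. Pim1, a kinase gene, was at 8.64 to 32.3 CPM in DN-mHCN2 base, 6.22 to 55.2 in DN-mHCN2 apex, 2.50 to 5.00 in truncated SK3 base and 1.72 to 4.80 in truncated SK3 apex, against 2.18 to 8.37 in control base and 6.10 to 12.4 in control apex. Its log2 fold change was 1.68 under DN-mHCN2 against control (SE 0.451, edgeR Benjamini-Hochberg adjusted p = 0.0320), and 1.13 with an adjusted p of 0.272 by edgeR once replicates 2 and 3 of DN-mHCN2 base were left out. Between the constructs, where 0.655% of all genes were called, 2 of the 22 were called, both higher in DN-mHCN2, Nptx2 by 3.70 and Pim1 by 2.59 on the log2 scale (edgeR Benjamini-Hochberg adjusted p = 0.00418 and 0.0208). With only the groups compared in the fit, the edgeR Benjamini-Hochberg adjusted p-values of that pair were 0.173 and 0.15. The list's median was 0.17 under DN-mHCN2 and 0.24 under truncated SK3, against 0.03 and 0.01 over all genes.

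The genes whose levels followed each member most closely over the 21 libraries were read from Pearson correlations of log2(CPM + 0.5) among the 9700 or more named genes of at least 10 CPM. All points share libraries and scaling, so the correlations describe these libraries only. Chgb was closest to Aldoa (r = 0.937), a glycolytic enzyme, and to Lpcat4 (0.890), and Chga to Ldhb (0.906), a lactate dehydrogenase subunit, and to Hspbp1 (0.885). Scg3 was closest to Shb (0.832) and Gabbr1 (0.773), a GABA-B receptor subunit, and Scg5 to Ppp1r11 (0.820) and Pop5 (0.794). For Calca the closest genes were Kcne1 (0.870) and Dnase1 (0.861), and the other sparse genes reached at most 0.774 (Scg2 with Kdelr2). The correlation of Chga with Chgb themselves was 0.684.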

How the data were processed

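The authors deposited a table of read counts per gene symbol with a column for each of the 21 libraries. Trimmomatic, HISAT2 and DESeq2 and the builds GRCm38 and mm10 are named without versions, per the submitters' processing notes. Neither the counter, the annotation nor the use of strand is given in the sources used here. The counts as deposited are whole numbers and were not normalized. Totals ran from 10411634 to 15138780.

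Groups follow the titles of the samples. Genes were kept with filterByExpr (14968 of 21878), scaled with TMM and tested with edgeR 4.0.16 under R 4.3.3 (robust quasi-likelihood F-test, 21 libraries, a mean for each group). P-values were adjusted over all tested genes by the Benjamini-Hochberg method and called at 0.05. The 11 comparisons were each construct against control (both regions, base, apex), the constructs against each other, base against apex (control, and the mean over conditions) and the difference of each construct's effect between regions. Intervals are 95% intervals of the fit.

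The members and lists were chosen with earlier results of these data known. By rule, the text names all members, of each list the called genes (up to 4) and the 2 of highest level, and the 2 genes closest to each member. Alternatives were RLE factors, no filter, DESeq2 1.42.0, only the groups compared, a replicate block and each library left out; added after the data had been seen were fits without the libraries rich in markers of other cells. The fit was tested on simulated data. Coordinates and exon lengths are from GENCODE M21 (GRCm38), promoter windows from RefSeq (GRCm38.p6). Python 3.11.15 and matplotlib 3.10.9 drew the figures. Isoforms were not analysed here.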

Additional observations from a re-analysis of the deposited data

Results flagged for a closer look

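In groups of 4 libraries, a library was singled out when its gap to the nearest other, as a share of the group's range, exceeded Dixon's critical value at 95%. The 10 genes in 3 groups of that size gave 30 cases, of which 9 met this. Chance gives about 1 in 20 for normally distributed values, a rate that does not hold for sparse counts, where a lone library with reads always meets the limit. Vgf in replicate 4 of control base was at 17.2 CPM, with the next library at 0.872 CPM. Scg2 in the same library was at 12.5 CPM, with the next at 1.57 CPM. Among the abundant genes, Scg3 in replicate 3 of DN-mHCN2 apex was at 144 CPM, with the next at 108 CPM, and Scg5 in replicate 2 of control apex was at 477 CPM, with the next at 698 CPM. Calca in replicate 1 of DN-mHCN2 apex was at 0.588 CPM, with the next at 0.0829 CPM. In the other 4 cases a single library had reads and the rest of its group had none. These were Adcyap1 in replicate 1 of DN-mHCN2 apex (0.0653 CPM), Gal in replicate 4 of DN-mHCN2 apex (0.448 CPM) and in replicate 3 of control base (0.271 CPM), and Npy in replicate 1 of control base (0.61 CPM).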

How the results depend on the processing

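The number of called genes moved with the fit, while among the member tests given above edgeR called none under the alternatives run except Chga under truncated SK3 over both regions with only the groups compared. With DESeq2 the calls were 1661 for DN-mHCN2 over both regions, 320 for truncated SK3, 540 between the constructs, 232 and 1101 for DN-mHCN2 in the apex and base, 156 and 81 for truncated SK3 in the apex and base, 83 and 571 for the regional difference in control and over the conditions, and 123 and 21 for the differences of the DN-mHCN2 and truncated SK3 effects between regions, against 906, 110, 98, 30, 320, 38, 22, 0, 173, 1 and 0 by edgeR. With only the groups compared they were 244 for truncated SK3, 7 between the constructs and 37 for base against apex in control. Leaving out macrophage-rich libraries keeps 1 library of DN-mHCN2 base, and leaving out oligodendrocyte-rich ones keeps 1 of control base, so values that use these groups rest on a lone library assumed to vary like the other groups. Without macrophage-rich libraries they were 475 for DN-mHCN2 over both regions, 52 between the constructs, 103 for DN-mHCN2 in the base, 41 for base against apex over the conditions and 0 for the DN-mHCN2 difference between regions. Without supporting cell- or fibroblast-rich libraries the last 3 were 866, 480 and 64, and without oligodendrocyte-rich libraries base against apex was 6. Deviations of same-numbered libraries correlated by -0.317 to 0.408, over 0.1 in 10 of 48 pairs, and 7 of 21 libraries correlated best with their own number. These pairs mix constructs and regions. Base and apex libraries of the same construct were not looked at apart, so whether replicate numbers pair libraries of the same animals cannot be told. With a replicate block the calls were 602 for DN-mHCN2 and 69 for truncated SK3 over both regions, 141 for DN-mHCN2 in the base, 80 for base against apex over the conditions and 0 for the DN-mHCN2 difference between regions, and the edgeR adjusted p of Slc18a2 was 0.0848 under DN-mHCN2 and 0.168 under truncated SK3, that of Rab27b 0.0575.

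With a library left out in turn, calls ran from 520 to 1429 for DN-mHCN2 over both regions, 61 to 114 for truncated SK3, 52 to 354 between the constructs, 16 to 86 and 107 to 569 for DN-mHCN2 in the apex and base, 19 to 62 and 11 to 22 for truncated SK3 in the apex and base, 0 to 2 and 55 to 282 for the regional difference in control and over the conditions, and 0 to 34 for the DN-mHCN2 difference between regions. Signs of values near 0 turned: Chgb under DN-mHCN2 was -0.33 over both regions without macrophage-rich libraries and 0.13 in the base without supporting cell- or fibroblast-rich ones. Scg3 under DN-mHCN2 was 0.0067 with RLE factors and with DESeq2 and 0.070 without macrophage-rich libraries. Scg5 under DN-mHCN2 in the base was -0.16 without macrophage-rich libraries, Rab27b under DN-mHCN2 was -0.39 without them, and with a replicate block Scg3 and Scg5 under truncated SK3 in the apex were -0.0079 and 0.075. With a library left out, the ranges that crossed 0 were -0.14 to 0.14 (Chgb, DN-mHCN2, both regions), -0.42 to 0.13 (Chgb, DN-mHCN2 base), -0.072 to 0.048 (Scg3, DN-mHCN2, both regions), -0.098 to 0.055 (Scg3, truncated SK3, both regions), -0.11 to 0.19 (Scg3, truncated SK3 apex), -0.20 to 0.034 (Scg3, truncated SK3 base), -0.034 to 0.34 (Scg5, DN-mHCN2 base) and -0.17 to 0.011 (Scg5, truncated SK3 apex). The cause of these moves was not tested. RLE factors moved the median of all genes by less than 0.1 on the log2 scale. With only the groups compared, Npy in the base under truncated SK3 fell below the filter and has no value. A group of 3 or 4 libraries with counts of a few reads limits Vgf, Scg2, Adcyap1, Gal, Npy and Calca, where 1 read is worth 0.0653 to 0.102 CPM.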
